A study of Mus musculus with 2 samples.

Results

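The genes described here are those of the TGF-beta, BMP and activin signalling system. They are the 57 protein-coding genes, of 54532 genes in the deposited table, whose symbols begin with Tgfb, Bmp, Inhb, Gdf and a digit, Acvr, Smad and a digit, or Ltbp, with the stress cytokine gene Gdf15 left out. Their levels were compared between 2 RNA sequencing libraries of sorted mouse bone marrow niche cells. The cells came from CB6F1 recipients that were irradiated with 2 doses of 4.0 Gy and received marrow of B6.SJL donors 4 hours later (BMT), and from recipients that were additionally given spleen cells of C57BL/6 mice to induce acute graft-versus-host disease (aGVHD_V). The meaning of the V, the ages and the number of mice behind a sample are not stated in the sources at hand. Cells carrying CD45, lineage antigens or CD71 had been depleted by sorting.

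Ligands of this superfamily are secreted dimers that bring together type I and type II receptor kinases on the surface of the responding cell. The type I receptor then phosphorylates receptor-regulated SMAD proteins, which join the common partner SMAD4 and enter the nucleus. SMAD2 and SMAD3 carry the signal of TGF-beta and activin, and SMAD1, SMAD5 and SMAD9 that of BMPs. TGF-beta itself is secreted in a latent form that is held in the matrix by latent TGF-beta binding proteins. In bone marrow, TGF-beta is known for holding blood stem cells in quiescence, and BMPs for bone formation.

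Levels are given in FPKM (fragments per kilobase of transcript and per unit of a library size that the authors had scaled), so levels of different genes can be compared. There was 1 sample per group, so no difference below has a replicate check and no p-value is given. The read number of each gene was recovered from the FPKM, and the reads over all genes summed to 10869191 in the BMT sample and 11299834 in the aGVHD_V sample. Detected genes most often had 14 reads in the BMT sample and 44 in the aGVHD_V sample, so reads were counted in units of that number to compute a 95% interval of the FPKM ratio. Such a widened interval covers counting error alone, on the untested assumption that 1 unit stands for 1 counted molecule, and few starting molecules would by themselves leave low genes without reads. A gene without reads was given a floor of 3 such units, which is 42 reads in the BMT sample and 132 reads in the aGVHD_V sample. A fold is printed only where both samples exceeded the floor, and a lower bound where one sample had no reads and the level in the other exceeded the levels that both floors correspond to. Measured genes are those that reached an FPKM of 1 in either sample, and a log2(FPKM + 1) difference of at least 1 counts as 2-fold.

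The samples differed in the levels of cell type markers. All 11 markers of marrow mesenchymal stroma were lower by 2-fold or more with aGVHD_V, their summed FPKM being 632 in the BMT sample and 40.1 in the aGVHD_V sample, and Lepr, a defining marker, had no reads there. Of 10 endothelial markers 8 were lower (summed FPKM 88.6 and 17.4), with Cdh5, Cldn5, Kdr and Tek at 0 reads in the aGVHD_V sample. All 7 measured of 8 B cell markers were lower (75.7 and 1.505), 6 of the 8 having no reads in the aGVHD_V sample, among them Cd79b and Pax5. Markers of blood cells in general lay within 2-fold for 5 of 5 genes (357 and 482), with none at 0. Of 12 monocyte and macrophage markers, 9 lay within 2-fold (287 in each sample), with none at 0. Erythroid markers were at least 2-fold higher for 6 of 10 genes (44824 and 165746), with none at 0, and megakaryocyte markers for 5 of 8 measured of 11 (84.8 and 281), with 2 lower and Gp1ba, Gp6 and Treml1 at 0 reads in the aGVHD_V sample. Neutrophil markers lay within 2-fold for 10 of 10 genes (14776 and 19652), and T cell markers for 7 of 8 (27.3 and 39.5), with none at 0. The neutrophil and erythroid sums were the largest of these lists in both samples, although cells carrying CD45, lineage antigens or CD71 had been depleted. Tfrc, the gene of CD71, had an FPKM of 160 in the BMT sample and 269 in the aGVHD_V sample. Although the title speaks of single cells, the table gives 1 value per gene and sample. In such values, fewer cells of a type and less RNA per cell cannot be told apart. The part of these shifts in the differences below was not tested.

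Of the 57 genes 36 were measured, 9 had reads but stayed under an FPKM of 1 in both samples, and 12 had no reads in either. In the aGVHD_V sample 15 of the measured genes (41.7%) were lower by 2-fold or more, none was higher by as much, and 21 lay within 2-fold. Over all 11173 measured protein-coding genes, 16.3% were lower by this rule and 5.58% were higher. The median difference was -0.84 on the log2(FPKM + 1) scale (95% order-statistic interval over genes -1.19 to -0.40), against -0.07 over all measured protein-coding genes. By direction alone, 31 of the 36 were lower and 5 were higher. A gene that passed the minimum through the BMT sample alone had to be lower. These counts, the median and its interval thus describe the genes and test nothing. Genes are not replicates of the condition, and the interval over them does not measure a spread between samples.

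**Figure D1:**
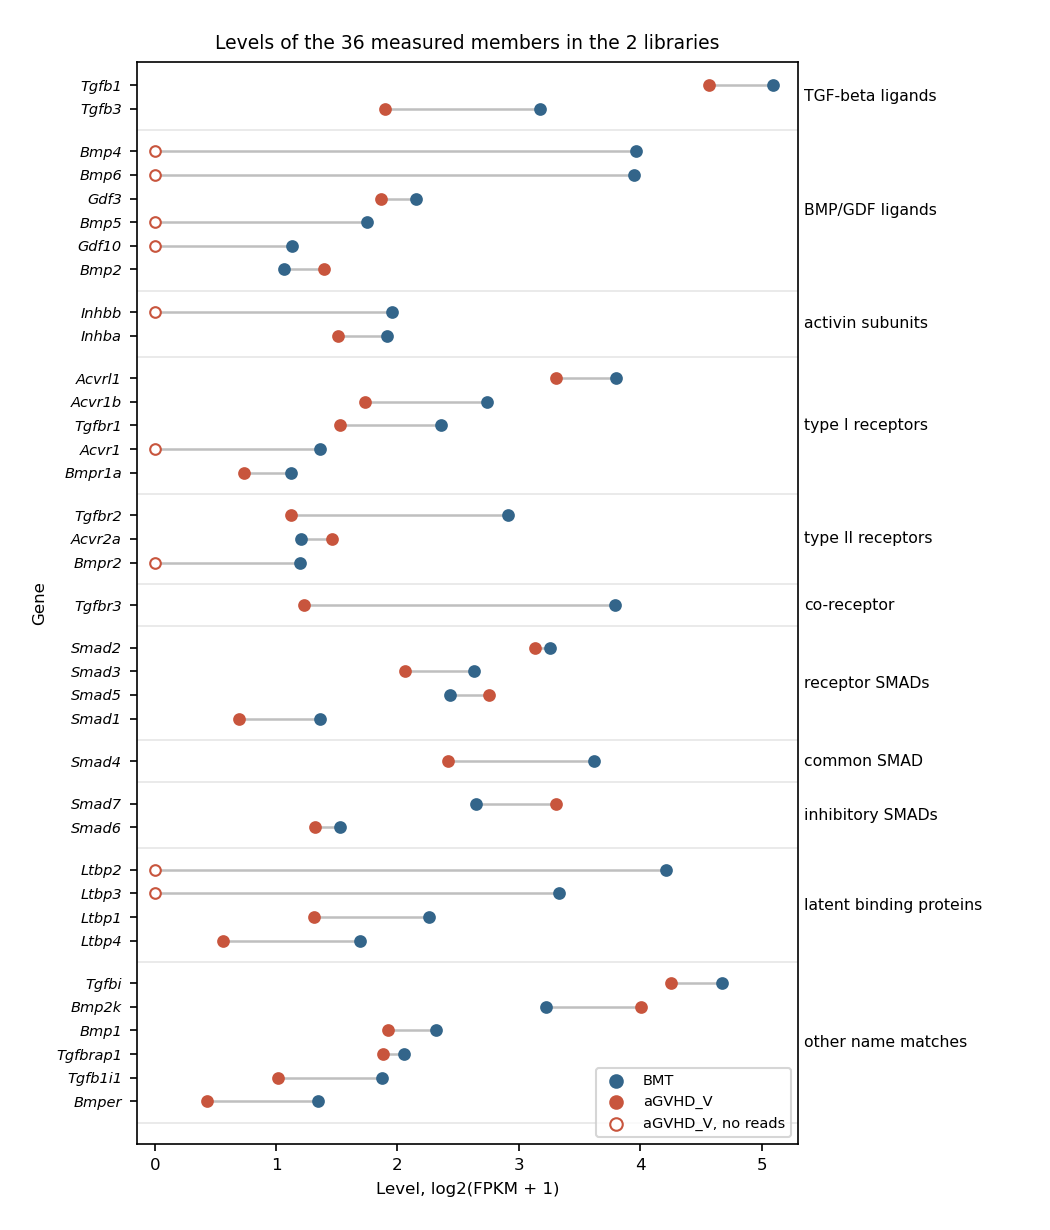
Level of each of the 36 measured genes on the log2(FPKM + 1) scale, with blue points for the BMT sample, red points for the aGVHD_V sample and open red points where the aGVHD_V sample had no reads, ordered by role. The longest lines belong to Ltbp2, Bmp4, Bmp6 and Ltbp3, which ran from FPKM of 9.06 to 17.5 to no reads, while Tgfb1 and Tgfbi stayed high in both samples.

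The share of lower genes lay further above that of all protein-coding genes at the higher level. Of 17 genes that reached an FPKM of 5 in a sample, 9 (52.9%) were at least 2-fold lower. The share at that level was 9.38% among all protein-coding genes. Each of these 9 genes reached an FPKM of 5 in the BMT sample alone, so their share describes the genes and tests nothing. Of 19 genes that peaked between 1 and 5 FPKM, 6 (31.6%) were lower, which is near the 29.1% of all protein-coding genes at that level. Among the 36 genes that reached an FPKM of 1 in the BMT sample, 9 (25%) had no reads in the aGVHD_V sample, against 9.28% of protein-coding genes. In the reverse direction, none of the 23 genes that reached 1 in the aGVHD_V sample was without reads in the BMT sample, against 1.34%. Absent reads were thus commoner in the aGVHD_V sample over all protein-coding genes, and fewer genes were detected in it (12310 against 15477). Among the 16 genes with 5 or more in the BMT sample, 4 (25%) had no reads in the other, against 2.0%. The widened interval lay entirely below 1 for 7 of the 36 genes (19.4%, against 5.22% of protein-coding genes) and entirely above 1 for 1 gene (2.78%, against 6.55%).

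Bmp4, Ltbp3, Tgfb1 and Bmp2k are shown with the 250 bases before their RefSeq transcription start (GRCm38.p6, 5′ to 3′ on the gene's strand). Those bases overlap no exon of GENCODE release M21. For Ltbp2, Bmp6 and Bmpr2, whose intervals also lay below 1, no such window was at hand. Bmp4 and Ltbp3 had no reads in the aGVHD_V sample, Tgfb1 was the most abundant of the genes, and Bmp2k was the gene whose interval lay above 1. Capitals mark GGCGCC, a GC-rich sequence known to bind BMP SMADs, which is its own reverse complement. The SMAD box CAGACA was searched on both strands as well and occurs in none of the windows shown.
Bmp4, chr14:46390670-46390919, minus strand: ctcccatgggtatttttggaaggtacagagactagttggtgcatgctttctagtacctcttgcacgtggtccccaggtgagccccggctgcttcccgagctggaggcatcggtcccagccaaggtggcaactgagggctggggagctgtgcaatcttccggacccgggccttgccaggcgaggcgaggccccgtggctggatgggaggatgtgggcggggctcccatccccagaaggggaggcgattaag
Ltbp3, chr19:5740650-5740899, plus strand: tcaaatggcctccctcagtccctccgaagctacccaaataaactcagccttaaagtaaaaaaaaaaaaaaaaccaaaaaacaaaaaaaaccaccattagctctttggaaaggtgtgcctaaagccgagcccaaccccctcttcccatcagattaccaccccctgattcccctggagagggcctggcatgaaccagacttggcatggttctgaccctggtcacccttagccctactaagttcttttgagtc
Tgfb1, chr7:25686752-25687001, plus strand: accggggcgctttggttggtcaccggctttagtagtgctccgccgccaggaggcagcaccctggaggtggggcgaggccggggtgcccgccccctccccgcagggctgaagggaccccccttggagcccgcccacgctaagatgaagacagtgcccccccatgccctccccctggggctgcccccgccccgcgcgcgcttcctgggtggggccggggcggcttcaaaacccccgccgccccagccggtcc
Bmp2k, chr5:96997439-96997688, plus strand: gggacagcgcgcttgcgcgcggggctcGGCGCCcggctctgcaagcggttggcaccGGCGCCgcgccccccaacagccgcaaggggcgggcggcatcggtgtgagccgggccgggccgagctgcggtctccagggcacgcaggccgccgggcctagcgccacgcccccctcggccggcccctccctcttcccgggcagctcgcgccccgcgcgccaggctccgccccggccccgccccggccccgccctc
Bmp2k held 2 copies of GGCGCC, and the other windows held none. In the RefSeq table, 42 of the 57 genes had at least 1 window, 53 windows in all. GGCGCC was found in 11 of these 53 (20.8%) and in 9.59% of all 32851 windows, and CAGACA in 7 (13.2%) and in 17.1%. By gene, GGCGCC was present for 2 of 12 genes with a window that were at least 2-fold lower and for 6 of 14 that lay within 2-fold. Windows of 1 gene can overlap, and a match to these letters is a description, not a binding site.

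Among the ligands, the most abundant BMP genes had no reads in the aGVHD_V sample, while the main TGF-beta gene lay within 2-fold at the authors' scaling. The 3 TGF-beta ligands summed to an FPKM of 41.4 in the BMT sample and 25.4 in the aGVHD_V sample, with counting errors (SE) of 3.22 and 4.68. The 19 BMP and GDF ligands, without Gdf15, summed to 39.2 (SE 3.93) and 4.27 (SE 2.53). The lower sum rests on Gdf3 and Bmp2, both under the floor, and its SE takes genes without reads as exact zeros. Placing each gene that lacked reads at its floor, but not above its level in the other sample, gave 18.6, which is 2.11-fold lower than in the BMT sample, a value added after seeing the data.

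Tgfb1, the TGF-beta isoform of blood and stromal cells (ENSMUSG00000002603, GRCm38 chromosome 7, 25687002 to 25705077, plus strand), had an FPKM of 33.2 in the BMT sample and 22.7 in the aGVHD_V sample, on 2028 and 1218 reads. It was 1.46-fold lower, with an interval (0.970 to 2.29) spanning no difference, and it made up 80.1% and 89.3% of the TGF-beta ligand sum. Its log2(FPKM + 1) difference of -0.53 became -1.11 with both samples at an equal FPKM sum. It was -1.08 with the aGVHD_V sample alone scaled to the sum of the BMT sample. Both values lie past the 2-fold limit, and these scalings moved the median protein-coding gene by -0.57 and -0.51. Tgfb3, an isoform known for palate and lung development, had 8.02 on 329 reads in the BMT sample and 2.72 on 98 reads in the aGVHD_V sample, and the interval of the fold (0.774 to 22.03) included no difference. Tgfb2, the remaining isoform, stayed under an FPKM of 1 in both samples. The TGF-beta ligand transcripts of these cells were thus mostly Tgfb1 in both samples.

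Bmp4, a ligand of bone and mesenchyme (ENSMUSG00000021835, chromosome 14, 46383520 to 46390669, minus strand), had an FPKM of 14.6 on 399 reads in the BMT sample and no reads in the aGVHD_V sample, and was at least 2.66-fold lower. Bmp6, known for inducing the iron hormone hepcidin when it is released by liver endothelium (ENSMUSG00000039004, chromosome 13, 38345107 to 38500302, plus strand), had 14.4 on 682 reads against none, at least 4.54-fold lower. These were the most abundant BMP ligands of the BMT sample, with 37.3% and 36.8% of its BMP and GDF sum. Bmp5 (a skeletal BMP, 2.36 in the BMT sample) and Gdf10 (also called BMP3B, 1.19) likewise had no reads in the aGVHD_V sample, but their 115 and 75 reads were too few for a bound. The ligands found in both samples were Gdf3, a factor of early embryos and of fat tissue, at 3.44 and 2.63, and Bmp2, an inducer of bone, at 1.09 and 1.64. Their intervals, 0.220 to 19.9 for Gdf3 lower and 0.070 to 14.1 for Bmp2 higher in the aGVHD_V sample, included no difference. Bmp3, Bmp7, Gdf5 and Gdf11 had reads but stayed under an FPKM of 1, and Bmp8a, Bmp8b, Bmp10, Bmp15, Gdf1, Gdf2, Gdf6, Gdf7 and Gdf9 had no reads in either sample.

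Of the activin and inhibin subunits, Inhba (the subunit of activin A) was found in both samples at 2.76 and 1.85, on 214 and 126 reads (interval of the fold 0.415 to 8.44). Inhbb, the subunit of activin B, had 2.89 on 149 reads in the BMT sample and none in the aGVHD_V sample, which was too few for a bound. Inhbc and Inhbe, which are known as liver genes, had no reads. The activin subunits were thus low throughout, and Inhba was the one with reads in both samples.

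**Figure D2:**
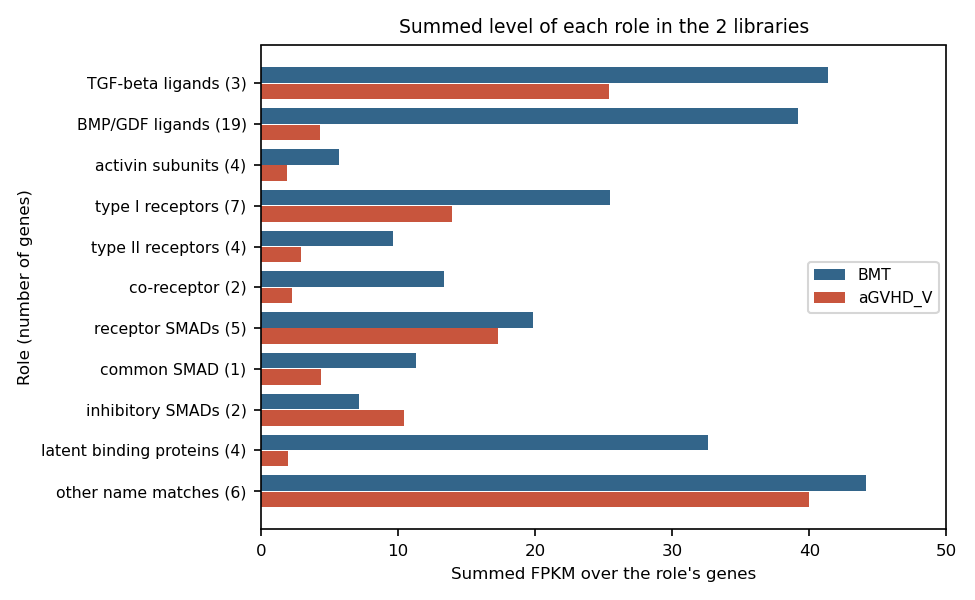
Summed FPKM over the genes of each role in the BMT sample (blue bars) and the aGVHD_V sample (red bars), with the number of genes in brackets and genes without reads at 0. The BMP and GDF ligands went from 39.2 to 4.27 and the latent TGF-beta binding proteins from 32.6 to 1.96, whereas the receptor-regulated SMADs were at 19.9 and 17.3.

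Latent TGF-beta binding proteins, most of which anchor latent TGF-beta in the matrix, were lower in sum as well. Their sum was 32.6 (SE 2.30) in the BMT sample and 1.96 (SE 0.942) in the aGVHD_V sample, or 5.85 there with genes without reads at their floor, which is 5.57-fold lower. Ltbp2, which binds fibrillin and elastic fibre proteins but is not known to hold TGF-beta (ENSMUSG00000002020, chromosome 12, 84783212 to 84876532, minus strand), had 17.5 on 1739 reads against none and was at least 11.6-fold lower. It made up 53.7% of the sum of the binding proteins in the BMT sample, and no sum without it was computed. Ltbp3, a carrier of latent TGF-beta in bone (ENSMUSG00000024940, chromosome 19, 5740904 to 5758532, plus strand), had 9.06 on 570 reads against none, at least 3.80-fold lower. Together with Bmp4 and Bmp6 they are the genes that had 5 or more in the BMT sample and no reads in the other.

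The remaining binding proteins were found in both samples. Ltbp1, the most widely expressed carrier, had 3.79 on 482 reads and 1.48 on 165 reads, 2.57-fold lower (interval 0.893 to 10.5, spanning no difference). Its difference of -0.95 on the log2(FPKM + 1) scale lies just inside the 2-fold limit. Ltbp4, a carrier tied to elastic fibres of lung and vessels, had 2.23 and 0.479, on 175 and 33 reads, and was counted as lower, with an interval from 0.570 to 571. All 4 binding proteins were thus lower by direction, and the intervals of Ltbp2 and Ltbp3 excluded no difference.

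Receptors were lower in sum. Type I and type II receptors together summed to 35.04 (SE 2.77) in the BMT sample and 16.9 (SE 3.78) in the aGVHD_V sample. Type II receptors were at 37.7% (SE 5.96) of the type I sum in the BMT sample and at 21.03% (SE 11.2) in the aGVHD_V sample, values whose counting errors overlap. Of the 8 measured receptors 4 were counted as lower and 0 as higher.

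Tgfbr2, the type II receptor that binds TGF-beta (ENSMUSG00000032440, chromosome 9, 116084293 to 116175360, minus strand), had 6.52 on 647 reads and 1.18 on 103 reads, with an interval of the fold of 1.57 to 37.4. Tgfbr1, its type I partner, had 4.14 and 1.88, and its interval of 0.664 to 11.5 included no difference. Tgfbr3, betaglycan, the co-receptor that presents TGF-beta and inhibin (ENSMUSG00000029287, chromosome 5, 107106570 to 107289629, minus strand), had 12.8 on 1019 reads and 1.35 on 94 reads, with an interval of 2.64 to 72.6. The intervals of the type II receptor and betaglycan thus excluded no difference, and that of the type I receptor included it. These intervals overlap, and all of these genes were under the floor of 132 reads in the aGVHD_V sample. A difference between the type I receptor and the others is therefore not shown.

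Among receptors of BMPs, Bmpr2, a type II receptor known from pulmonary hypertension, had 1.29 on 281 reads in the BMT sample and none in the aGVHD_V sample, at least 1.87-fold lower. Acvr1 (ALK2), a type I receptor mutated in a human disease of ectopic bone, had 1.57 on 92 reads against none, too few for a bound. Bmpr1a had 1.18 and 0.665, with an interval of 0.226 to 75.5. Acvrl1 (ALK1), the endothelial receptor of BMP9 and BMP10, was the most abundant receptor in both samples at 12.9 and 8.88, on 667 and 404 reads, 1.45-fold lower (interval 0.708 to 3.34). Its ligand genes Gdf2 (BMP9) and Bmp10 had no reads. Acvrl1 shares 127 exonic bases with the antisense gene Gm16031, which had 13.8 in the aGVHD_V sample and none in the BMT sample, and without knowledge of strand the reads cannot be told apart. Acvrl1 thus lay within 2-fold, beside endothelial markers of which 8 of 10 were lower.

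Receptors of activin went both ways. Acvr1b (ALK4), the type I receptor of activin, had 5.66 on 303 reads and 2.31 on 109 reads, and at -1.01 on the log2(FPKM + 1) scale it lies just outside the 2-fold limit, with an interval of the fold from 0.669 to 15.9. Acvr2a, a type II receptor of activin, had 1.31 and 1.75, with an interval of 0.172 to 6.67 for the fold higher, and its direction turned when the aGVHD_V sample was scaled down to the FPKM sum of the BMT sample or both to an equal sum. Acvr1c, Acvr2b and the betaglycan-like gene Tgfbr3l stayed under an FPKM of 1, and Bmpr1b had no reads. None of the intervals of the activin receptors found in both samples excluded no difference.

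**Figure D3:**
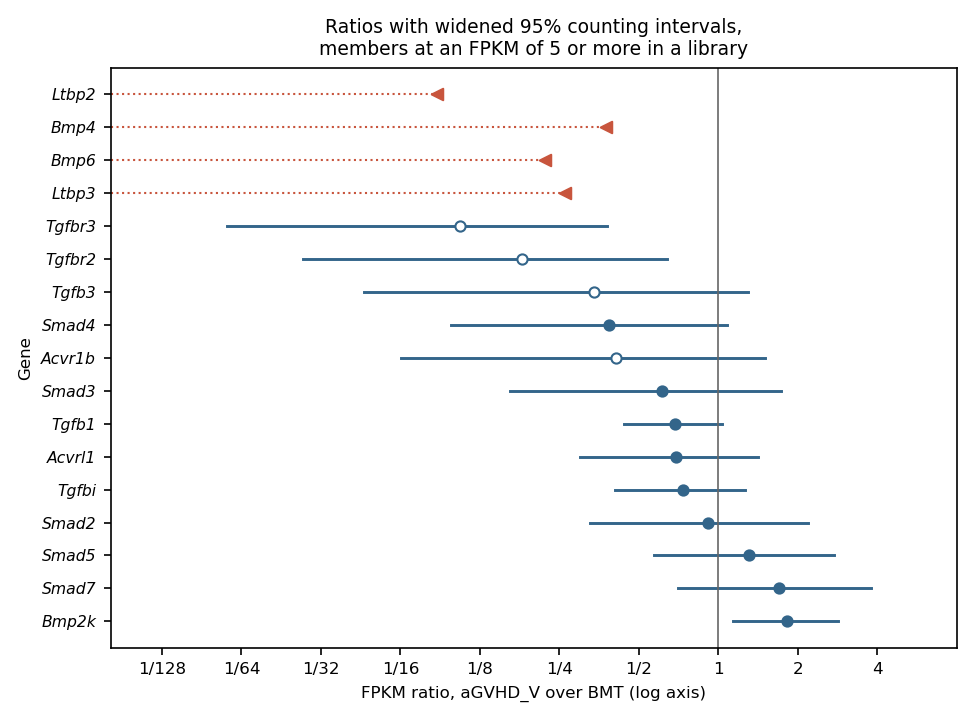
FPKM ratio of the aGVHD_V over the BMT sample on a log axis for the 17 genes that reached an FPKM of 5 in a sample, with widened 95% intervals as lines, open circles where a sample was under the floor, and red triangles at the upper bound of the ratio where the aGVHD_V sample had no reads. The 4 genes without reads, Tgfbr3 and Tgfbr2 lie below 1 with their whole interval, and Bmp2k lies above 1.

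The intracellular part of the pathway differed less. The 5 receptor-regulated SMADs summed to 19.9 (SE 2.21) in the BMT sample and 17.3 (SE 3.88) in the aGVHD_V sample, and all 4 measured ones lay within 2-fold. Smad2, a transducer of TGF-beta and activin, had 8.57 and 7.80 on 369 and 295 reads, 1.10-fold lower (interval 0.460 to 3.07). Smad3, its partner, had 5.19 and 3.16 on 349 and 187 reads, 1.64-fold lower (interval 0.580 to 6.18). Both transducers of TGF-beta thus lay within 2-fold, with wide intervals that spanned no difference.

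Smad5, a transducer of BMP signals, had 4.40 and 5.74 on 396 and 454 reads, 1.30-fold higher (interval 0.573 to 2.74), but lower after either scaling to an equal FPKM sum named above for Acvr2a. Smad1, another BMP transducer, had 1.57 and 0.614, with an interval of 0.332 to 141. Smad9 stayed under an FPKM of 1. Smad4, the common partner (ENSMUSG00000024515, chromosome 18, 73639009 to 73703780, minus strand), had 11.3 on 509 reads and 4.35 on 172 reads, 2.60-fold lower (interval 0.924 to 10.3, spanning no difference). Smad4 was the only SMAD counted as at least 2-fold lower. Its level is not part of the receptor-regulated SMAD sum. It corresponded to 56.9% (SE 11.4) of that sum in the BMT sample and 25.1% (SE 13.9) in the aGVHD_V sample.

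The inhibitory SMADs, which are induced by the pathway and shut it off, were not lower in sum. Smad7, the inhibitor of TGF-beta and BMP receptors, had 5.25 and 8.90 on 288 and 429 reads, 1.69-fold higher (interval 0.704 to 3.80, spanning no difference). Smad6, the inhibitor of BMP receptors, had 1.88 and 1.49, with an interval of 0.157 to 38.8 for the fold lower. Their sum was 7.13 (SE 1.42) in the BMT sample and 10.4 (SE 3.17) in the aGVHD_V sample, a direction that turned under the same scalings as that of Smad5. It corresponded to 35.9% (SE 8.19) and 60.0% (SE 22.7) of the receptor-regulated SMAD sum, and these errors overlap.

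The rule also took 6 genes that are neither ligands, receptors, SMADs nor latent binding proteins, and all 6 lay within 2-fold. Tgfbi, an adhesion protein induced by TGF-beta and abundant in macrophages, had 24.5 and 18.03 on 1121 and 725 reads, 1.36-fold lower (interval 0.793 to 2.47). Bmp2k, a kinase of endocytosis and autophagy named for its induction by BMP2 (ENSMUSG00000034663, chromosome 5, 96997689 to 97091867, plus strand), had 8.33 on 857 reads and 15.1 on 1364 reads, 1.81-fold higher with an interval of 1.14 to 2.83. It was the gene whose interval lay above 1 at the authors' scaling, beside erythroid markers that were higher for 6 of 10 genes. Its difference of 0.79 on the log2(FPKM + 1) scale became 0.27 with both samples at an equal FPKM sum. With the aGVHD_V sample alone scaled to the sum of the BMT sample it was 0.25. Intervals were not computed under these scalings. Its exons share 1185 bases with those of Paqr3 on the other strand, which had 0.196 and 0.

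The others were lower by direction only. Bmp1, a protease that trims procollagen and is not a BMP ligand, had 3.98 and 2.79 (1.43-fold lower, interval 0.585 to 4.18). Tgfbrap1, a vesicle trafficking protein, had 3.16 and 2.68 (1.18-fold lower, interval 0.509 to 3.14). Tgfb1i1 (HIC5), an adaptor of focal adhesions, had 2.66 and 1.02, and Bmper, a secreted BMP-binding protein, had 1.54 and 0.349, each with an interval that included no difference. Without these 6 genes, 15 of 30 measured genes (50%) were still past the limit on the lower side, against 16.3% of protein-coding genes.

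Some of these genes lie close together on a chromosome. Acvrl1 (within 2-fold) and Acvr1b (lower) are 28.7 kb apart on chromosome 15, and Tgfbi and Smad5 (both within 2-fold) are 63.4 kb apart on chromosome 13. On chromosome 18, Smad4 (lower), Smad7 and Smad2 (within 2-fold) follow one another. Exons of 13 of the 36 measured genes overlap those of another gene, for 11 of them on the other strand, and the labels do not say whether the authors' counting used strand. Of these, Bmp6 shares 224 bases with Txndc5, which had reads in both samples.

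**Figure D4:**
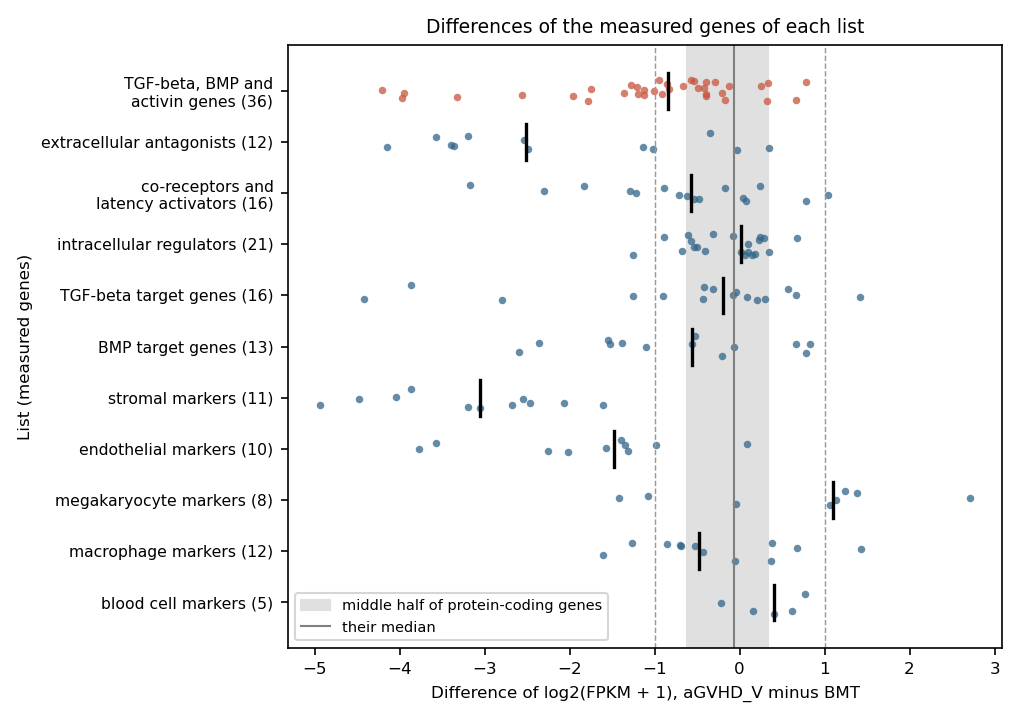
Difference of log2(FPKM + 1), aGVHD_V minus BMT, of each measured gene (points) of the TGF-beta, BMP and activin genes, of other pathway lists and of cell type markers, with black bars at the list medians, a grey band for the interquartile range and a grey line for the median of all measured protein-coding genes, and dashed lines at -1 and 1. The TGF-beta, BMP and activin genes have a median of -0.84, the extracellular antagonists of -2.51, the intracellular regulators of 0.01 and the stromal markers of -3.05.

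Other genes of the pathway were taken from lists by role, chosen from general knowledge, and their counts stand beside the 16.3% lower and 5.58% higher of all measured protein-coding genes. The secreted antagonists, which bind ligands outside the cell, were lower: of 20 genes 12 were measured, 9 of them lay past the 2-fold limit on the lower side and 0 on the higher, and the median was -2.51. Chrdl1, a chordin-like BMP antagonist, had 16.8 on 1373 reads in the BMT sample and none in the aGVHD_V sample, at least 9.14-fold lower. Fstl1, a follistatin-like secreted protein, had 50.1 and 3.87, 12.9-fold lower (interval 5.28 to 42.7), and Bgn (biglycan, a matrix proteoglycan that binds TGF-beta) had 50.02 and 3.28. Of the measured BMP antagonists named with their values known, Grem1 (gremlin) had 9.26 on 466 reads against none, at least 3.10-fold lower, whereas Twsg1 (twisted gastrulation) had 14.2 and 10.98 and Nbl1 (DAN) 6.17 and 5.998, both within 2-fold.

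Co-receptors and activators of latent TGF-beta had 5 of 16 measured genes lower, 1 higher and a median of -0.57. The widened interval lay entirely below 1 for 6 (37.5%, against 5.22% of protein-coding genes) and entirely above 1 for 1 (6.25%, against 6.55%). Lrrc32 (GARP), which holds latent TGF-beta on cell surfaces, had 3.92 on 223 reads against none, at least 1.49-fold lower. Fbn1, the fibrillin that latent binding proteins attach to, had 11.6 and 0.402 (interval of the fold 5.70 to 711), and Mmp2, a gelatinase, had 16.9 and 4.06, 4.17-fold lower (interval 1.41 to 18.8). Mmp9, the gelatinase of neutrophils, had 82.2 and 97.2, 1.18-fold higher (interval 0.912 to 1.52). The gene that was higher, named with its values known, was Itgb8, an integrin subunit that activates latent TGF-beta, at 0.231 and 1.53 on 31 and 181 reads (interval of the fold 1.01 to 63.3).

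Intracellular regulators lay within 2-fold for 20 of 21 measured genes, with a median of 0.01. The exception was Ldlrad4, a membrane inhibitor of SMAD activation, with 1.39 on 42 reads against none, too few for a bound. Stub1, a ubiquitin ligase, had 40.5 and 21.4, 1.89-fold lower (interval 0.922 to 4.41), and Ski, a co-repressor that binds SMADs, had 9.59 and 5.60, 1.71-fold lower (interval 0.787 to 4.33).

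Most measured target genes of TGF-beta lay within 2-fold. Of 16 measured genes on that list, which also holds Tgfbi and Smad7, 4 were lower, 1 was higher and the median was -0.19. The widened interval lay entirely below 1 for 5 (31.25%, against 5.22% of protein-coding genes) and above 1 for 0 (against 6.55%). The higher gene, named with its values known, was Itgae, with no reads in the BMT sample and 82 in the aGVHD_V sample. That is under the floor, and its interval included no difference. Ctgf, a matricellular protein, had 20.3 on 705 reads against none, at least 4.70-fold lower, while Junb, a transcription factor of the AP-1 family, had 231 and 172, 1.35-fold lower (interval 1.08 to 1.70). The collagen genes Col1a2 (33.9 and 1.39) and Col1a1 (23.2 and 2.47) were lower beside the stromal markers, of which Col1a2 is one. Of 13 measured BMP target genes, which include Smad6 and Smad7, 6 were lower, 0 were higher and the median was -0.56. Their widened interval lay entirely below 1 for 3 (23.1%, against 5.22% of protein-coding genes) and above 1 for 0 (against 6.55%). Id3, an inhibitor of differentiation factors that BMPs induce directly, had 50.9 on 1106 reads and 16.7 on 319 reads, 3.05-fold lower (interval 1.43 to 7.68). Id4, of the same family, had 5.06 on 236 reads against none, at least 1.57-fold lower. Tcf15, a mesodermal and endothelial transcription factor, had 4.12 on 49 reads against none, too few for a bound. The lower BMP targets were found beside stromal and endothelial markers that were lower in the same sample.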

How the data were processed

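RNA of sorted bone marrow niche cells was sequenced in 2 libraries, 1 of group BMT and 1 of group aGVHD_V by their labels. The deposited table gives each gene's FPKM in each library, per the file headers. edgeR 3.18.1 and the builds GRCm38 and mm10 are named in the submitters' processing notes, while aligner, counter and strand setting are not stated in the sources at hand. A column of per-sample values that fits no label (1 column) was left aside.

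FPKM multiplied by gene length fell on whole multiples of a step for 100% of values above 0 (tolerance 0.05), which gave the reads of each gene. The modal read number (numbers under 4 left out, window of 7) was 14 and 44. Intervals are exact conditional binomial (Clopper-Pearson) 95% intervals on reads divided by it, at the authors' library sizes. Their coverage was checked on simulated counts. These were drawn in the same units for genes with many reads, so the check cannot test the unit itself or genes with few reads. Reads are not independent molecules, so intervals, counting errors and floors cover counting error only, in part. Differences are of log2(FPKM + 1), which understates the change of low genes. Of rows with the same symbol, only the one with most reads was kept. Positions of 56 of the 57 genes equal those of GENCODE M21. All measured genes are named, with reads, interval and, above the floor, fold at an FPKM of 5 or more, and from other pathway lists the 3 genes with the largest difference and the one with the highest mean. Marker lists are given by counts and sums. Defining markers, overlapping genes and those said to be named with their values known fall outside this rule.

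The genes, lists and settings were chosen with earlier results of these data known. 11 alternative settings were fixed and 2 were added after seeing the data, as were the role sums with genes without reads at their floor. Some values of single genes are left out here. Python 3.11.15, NumPy 2.4.6, pandas 2.3.3, SciPy 1.17.1 and Matplotlib 3.10.9 were used.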

Additional observations from a re-analysis of the deposited data

How the results depend on the processing

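The count of 15 lower genes lay within 1.5 times of its value in 10 of 13 alternatives. It was 5 of 36 measured genes with a pseudocount of 5, 13.9% against 3.20% of protein-coding genes. With both libraries at an equal FPKM sum it was 27 of 40, 67.5% against 35.9%. Tgfb1, Acvrl1, Smad3 and Tgfbi were then among the lower genes. The count was 9 of 17 with an FPKM minimum of 5 (52.9%, against 9.38%), because fewer genes were tested. No gene was at least 2-fold higher in any of the 13. The median of -0.84 became -1.24 with a pseudocount of 0.1, -0.35 with a pseudocount of 5 and -1.52 with an equal FPKM sum. A pseudocount by its construction changes differences of low genes, and the cause of the others was not tested. The median was -0.47 with genes without reads at their floor, where 10 genes were lower (27.8%, against 7.77% of protein-coding genes). Scaling moved the median protein-coding gene by -0.57 (equal sum), -0.51 (aGVHD_V library alone, added after seeing the data) and -0.22 (all recovered reads). Lower genes made up 74.4% of protein-coding genes outside 2-fold, and 91.3%, 93.7% and 84.9% under these scalings. Of the 15 lower genes, Bmp4, Bmp6, Ltbp2, Ltbp3 and Tgfbr3 stayed at least 2-fold lower in every setting run, and none changed direction, though Acvr1, Bmp5, Gdf10 and Inhbb came to 0 under the floor setting. No paired analysis was possible because each group has 1 library. With 1 library per group, no library could be left out.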
